A study of Mus musculus with 15 samples.

Results

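The 9 genes described here encode the proteins that make, package and take up the fast transmitters of the brain: the glutamate packaging transporters Slc17a7, Slc17a6 and Slc17a8, the GABA synthesis enzymes Gad1 and Gad2, the shared GABA and glycine packaging transporter Slc32a1, the glycine uptake transporters Slc6a5 and Slc6a9, and the neuronal glutamate uptake transporter Slc1a1. They were chosen by gene name for these roles, from 27179 gene IDs in the deposited count table, and all 9 were among the 17151 genes that passed the filter on low counts. RNA-seq had been run on 15 libraries labelled as bulk brain tissue from hemispheres of mice aged 12 months. Of these, 7 libraries came from homozygous transgenic PLP-α-synuclein mice (TG, 4 libraries from females and 3 from males). In this line the PLP promoter, active in oligodendrocytes, drives human α-synuclein. The other 8 libraries came from non-transgenic C57Bl/6 mice (WT, 4 from females and 4 from males) matched for age and sex. No label names a separate animal for each library. The line is used as a model of multiple system atrophy.

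Glutamate, the main excitatory transmitter, is loaded into synaptic vesicles by vesicular glutamate transporters. In the adult brain Slc17a7 (VGLUT1) is known mainly from cortex, hippocampus and cerebellar granule cells, Slc17a6 (VGLUT2) from thalamus, brainstem and other subcortical nuclei, and Slc17a8 (VGLUT3) from scattered cells that often release another transmitter as well. GABA, the main inhibitory transmitter, is made from glutamate by the decarboxylases Gad1 (GAD67) and Gad2 (GAD65), and is loaded into vesicles by Slc32a1 (VGAT). The same vesicular transporter loads glycine, an inhibitory transmitter of brainstem and spinal cord, whose neurons reload it through the surface transporter Slc6a5 (GlyT2), whereas Slc6a9 (GlyT1) clears glycine mainly into glia.

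The libraries did not hold the same brain regions in the same amounts, although the labels give all of them as hemispheres. Clustering on 51 region markers, without the 9 genes and without genotype, gave 4 classes, formed after the data had been seen. The hindbrain-marker class had 4 libraries (TG females 1 and 4, WT female 3 and WT male 3), in which 13 hindbrain genes, mostly Hox genes, summed to between 438 and 575 CPM (counts scaled to the size of the library), against at most 0.507 CPM in any cortex-marker or olfactory-marker library. The cortex-marker class had 3 (TG male 4, WT female 2 and WT male 4), and the olfactory-marker class 7 (TG female 2, TG males 1 and 3, WT females 1 and 4, and WT males 1 and 2), in which 7 olfactory bulb markers summed to between 725 and 1827 CPM, against 76.2 to 158 CPM elsewhere. TG female 3 stood alone, with 7512 CPM of cerebellar markers. The olfactory-marker class was uneven, its summed striatal markers running from 428 to 1908 CPM, and 2 of its libraries, WT male 2 and TG male 3, joined the cortex-marker class when the classes were formed on scaled list means. Library totals were between 15170772 and 35850998 counts, so that 3 counts were worth between 0.0834 and 0.194 CPM, a limit that covers counting error only. Classes were built from these libraries, so differences between them are given as values without a p. In bulk tissue, fewer cells of a type and less RNA per cell cannot be told apart.

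Slc17a7, Slc6a5 and Slc17a6 lie in this order on chromosome 7 (GRCm38), with 4.73 Mb between Slc17a7 and Slc6a5 and 1.66 Mb between Slc6a5 and Slc17a6. Slc17a7 spans chr7:45163921-45176139, Slc6a5 chr7:49906984-49963864 and Slc17a6 chr7:51621830-51671126. Gad2 (chr2:22621015-22693877), Gad1 (chr2:70561303-70602014) and Slc32a1 (chr2:158607260-158615747) are all on chromosome 2, far apart, and Slc6a9 (chr4:117835258-117869305), Slc17a8 (chr10:89574020-89621249) and Slc1a1 (chr19:28835135-28913960) are each alone on their chromosome. Promoter windows from RefSeq on GRCm38.p6, 300 bases long, were found for all 9 genes. Of these, 4 are shown, from among the genes whose levels are compared as ratios below. They are Slc17a7 at chr7:45163671-45163970, Slc17a6 at chr7:51621580-51621879, Slc6a5 at chr7:49910049-49910348 and Slc32a1 at chr2:158610508-158610807, all on the plus strand. Where RefSeq gave more than 1 start, the first window is printed. Capitals mark the GC box GGGCGG or its reverse complement CCGCCC.
Slc17a7: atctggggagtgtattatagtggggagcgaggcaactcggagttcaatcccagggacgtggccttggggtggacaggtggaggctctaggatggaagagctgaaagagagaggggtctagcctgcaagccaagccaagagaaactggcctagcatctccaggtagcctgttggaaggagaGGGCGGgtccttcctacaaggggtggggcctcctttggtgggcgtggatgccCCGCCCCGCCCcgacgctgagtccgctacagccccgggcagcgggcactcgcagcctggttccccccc
Slc17a6: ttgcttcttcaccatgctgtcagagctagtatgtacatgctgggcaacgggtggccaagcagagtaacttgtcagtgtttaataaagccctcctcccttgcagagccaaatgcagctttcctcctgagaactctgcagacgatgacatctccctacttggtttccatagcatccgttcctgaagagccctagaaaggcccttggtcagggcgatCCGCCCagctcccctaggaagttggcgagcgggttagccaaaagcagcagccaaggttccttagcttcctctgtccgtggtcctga
Slc6a5: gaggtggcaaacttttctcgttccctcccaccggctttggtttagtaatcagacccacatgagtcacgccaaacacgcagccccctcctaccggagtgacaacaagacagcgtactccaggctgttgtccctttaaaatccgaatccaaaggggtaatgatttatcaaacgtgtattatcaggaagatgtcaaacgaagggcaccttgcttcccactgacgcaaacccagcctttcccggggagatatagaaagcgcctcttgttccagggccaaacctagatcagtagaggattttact
Slc32a1: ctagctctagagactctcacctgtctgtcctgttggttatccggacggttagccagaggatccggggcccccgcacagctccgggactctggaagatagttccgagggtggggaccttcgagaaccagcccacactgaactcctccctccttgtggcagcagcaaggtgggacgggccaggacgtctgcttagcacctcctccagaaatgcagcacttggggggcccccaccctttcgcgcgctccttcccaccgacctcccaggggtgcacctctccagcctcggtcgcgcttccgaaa
The Slc17a7 window held 3 GC boxes, of which 2 share a base, the Slc17a6 window held 1, and those of Slc6a5 and Slc32a1 held 0, where 35.7% of 32851 mouse promoter windows held at least 1. None of the 4 windows held, on either strand, the E-box CACGTG, the TATA element TATAAA, the RE1 half-site TTCAGCACC or the cyclic AMP element TGACGTCA, which were found in 7.15%, 13.6%, 0.371% and 1.79% of all windows. The CG dinucleotide count was 13 for Slc17a7, 8 for Slc17a6, 12 for Slc6a5 and 17 for Slc32a1, against a median of 7 over all windows. A match describes the letters of the window only.

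Slc17a7 was lowest in the hindbrain-marker libraries and highest in the cortex-marker libraries. It read 63.9 and 88.7 CPM in TG females 1 and 4, 82.7 in WT female 3 and 74.0 in WT male 3, a mean of 77.3 ± 10.8 CPM (SD, n = 4). In the cortex-marker libraries it read 1667 CPM in TG male 4, 1619 in WT female 2 and 1853 in WT male 4, a mean of 1713 ± 123 (SD, n = 3). The 7 olfactory-marker libraries lay between these, from 643 through a median of 706 to 998 CPM (mean 731 ± 122, SD), and the cerebellum-marker library read 447 CPM. None of the classes overlapped for this gene. The hindbrain-marker mean was 9.45-fold below the olfactory-marker mean and 22.2-fold below the cortex-marker mean, and the cortex-marker mean was 2.34-fold above the olfactory-marker mean.

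Slc17a6 had the opposite order. It read 290 and 284 CPM in TG females 1 and 4, 277 in WT female 3 and 291 in WT male 3 (mean 286 ± 6.33, SD, n = 4), so the 4 hindbrain-marker libraries lay close together. The cortex-marker libraries read 28.0 CPM in TG male 4, 27.3 in WT female 2 and 11.7 in WT male 4 (mean 22.3 ± 9.24, SD, n = 3). The olfactory-marker libraries ran from 21.0 through a median of 22.7 to 46.3 CPM (mean 26.8 ± 9.07, SD, n = 7), overlapping the cortex-marker range, and the cerebellum-marker library read 50.5 CPM. The hindbrain-marker mean was 10.7-fold above the olfactory-marker mean and 12.8-fold above the cortex-marker mean. The highest olfactory-marker value, 46.3 CPM, came from WT male 1. This library also had the largest sum of hypothalamic markers in its class, 177 CPM, against 72.6 to 89.0 CPM in the others. Most of the sum in those others was Trh (67.1 to 85.2 CPM), which read 73.8 CPM in WT male 1. Avp (22.2 CPM against at most 1.20) and Pmch (15.6 against at most 0.165) were among the markers higher in WT male 1. The named markers do not make up the whole of its sum. The part of these markers in the Slc17a6 value was not tested.

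**Figure D1:**
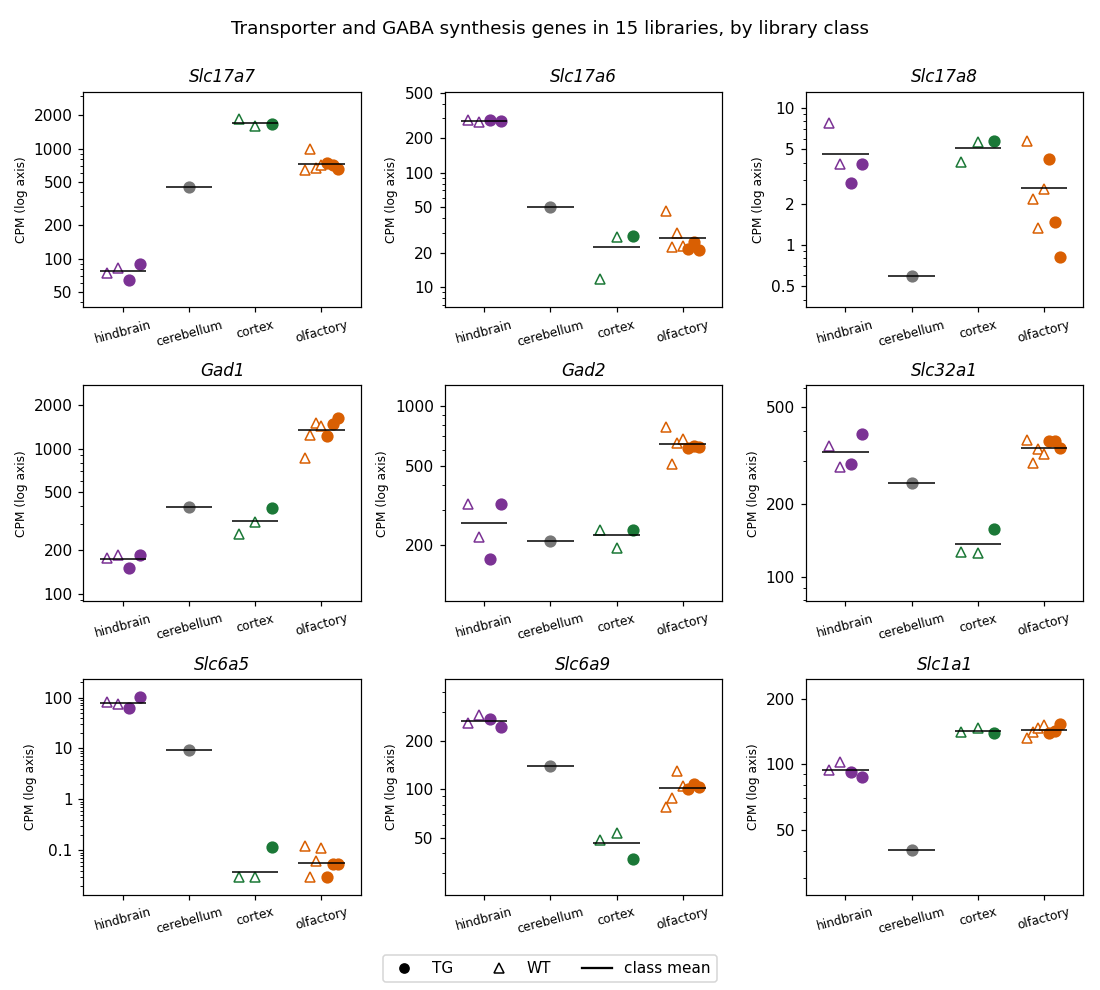
Level of each of the 9 genes in every library, in CPM on a log axis, grouped by library class; filled circles are TG, open triangles WT, and the line is the class mean. Libraries with 0 counts of Slc6a5 are drawn at 0.03 CPM. Slc17a7 and Slc17a6 run in opposite directions between the hindbrain-marker and the other libraries.

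Taken per kilobase of exon, which allows levels of different genes to be compared, Slc17a6 led in the hindbrain-marker libraries and Slc17a7 in all others. The hindbrain-marker mean was 52.9 CPM per kb for Slc17a6 and 14.3 for Slc17a7, while the cortex-marker means were 4.14 and 318 and the olfactory-marker means 4.96 and 136. The log2 ratio of Slc17a6 to Slc17a7 within a library was 1.89 ± 0.23 (SD, n = 4; 1.68 to 2.18) with hindbrain markers, -4.81 ± 0.54 (n = 7; -5.49 to -3.80) with olfactory markers, -6.36 ± 0.82 (n = 3; -7.31 to -5.89) with cortex markers and -3.15 in the cerebellum-marker library. The sign changed between the hindbrain-marker libraries and every other library, and it did so too with the length of the longest transcript in place of all exons (hindbrain-marker mean 1.47, olfactory-marker mean -5.23). This ratio within a library does not depend on how libraries are scaled.

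Slc17a8 was low throughout and did not separate the 3 replicated classes. It read 2.84 to 7.74 CPM with hindbrain markers (mean 4.60 ± 2.15, SD, n = 4), 4.07 to 5.74 with cortex markers (5.15 ± 0.930, n = 3), 0.824 to 5.72 with olfactory markers (2.62 ± 1.77, n = 7) and 0.597 in the cerebellum-marker library. The means of the 3 replicated classes differed by at most 1.97-fold, less than the spread within the olfactory-marker class. The cerebellum-marker library was the lowest of all 15, and WT male 1 was again the highest olfactory-marker library.

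Gad1, the enzyme that makes most of the cell's GABA, was highest with olfactory markers. It read 150 and 184 CPM in TG females 1 and 4, 185 in WT female 3 and 175 in WT male 3 (mean 174 ± 16.3, SD, n = 4), and 388, 311 and 257 CPM in TG male 4, WT female 2 and WT male 4 with cortex markers (319 ± 66.0, n = 3). The olfactory-marker libraries ran from 867 (WT male 1) through a median of 1428 to 1614 CPM (mean 1336 ± 248, SD, n = 7), and the cerebellum-marker library read 393 CPM. The 3 replicated classes did not overlap. The hindbrain-marker mean was 7.69-fold below the olfactory-marker mean and 1.84-fold below the cortex-marker mean.

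Gad2, the enzyme bound to synaptic vesicles, shared the olfactory-marker maximum but did not separate the other classes. It read 169 CPM in TG female 1, 321 in TG female 4, 219 in WT female 3 and 320 in WT male 3 with hindbrain markers (mean 257 ± 75.9, SD, n = 4), 193 to 238 CPM with cortex markers (223 ± 25.7, n = 3), 511 to 781 with olfactory markers (639 ± 81.4, n = 7) and 208 in the cerebellum-marker library. The hindbrain-marker mean lay 2.49-fold and the cortex-marker mean 2.87-fold below the olfactory-marker mean, and their ranges overlapped each other. The high pair within the hindbrain-marker class, TG female 4 and WT male 3, also held the larger sums of hypothalamic markers, 71.9 and 109 CPM. These sums were 40.5 CPM in TG female 1 and 31.2 in WT female 3. Different markers made up the 2 larger sums. WT male 3 had 103 CPM of Trh, 0.450 of Pmch and 0.0409 of Avp. TG female 4 had the lowest Trh of the class, 23.8 CPM, with 22.0 of Pmch and 7.83 of Avp. The part of these markers in the Gad2 values was not tested. Per kilobase of exon the log2 ratio of Gad2 to Gad1 was 0.90 ± 0.37 (SD, n = 4) with hindbrain markers, -0.12 ± 0.34 (n = 3) with cortex markers and -0.67 ± 0.42 (n = 7) with olfactory markers. The hindbrain-marker value became -0.15 with the longest transcript, because all exons of Gad1 cover 7639 bases and its longest transcript 3601. Which of the 2 enzymes led there therefore depends on the length used, while the order of the class means was the same.

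Slc32a1 was as high in hindbrain-marker as in olfactory-marker libraries, although both Gad genes were lower there. It read 293 and 388 CPM in TG females 1 and 4, 283 in WT female 3 and 348 in WT male 3 (mean 328 ± 49.2, SD, n = 4), and between 296 and 366 CPM, median 339, with olfactory markers (340 ± 25.7, n = 7). The log2 difference of these means was -0.05 and the ranges overlapped. The cortex-marker libraries read 158 CPM in TG male 4 and 126 in both WT libraries (137 ± 18.6, n = 3), 2.40-fold below the hindbrain-marker and 2.49-fold below the olfactory-marker mean, and the cerebellum-marker library read 242 CPM. Per kilobase of exon, the log2 ratio of Slc32a1 to the sum of Gad1 and Gad2 was 0.83 ± 0.20 (SD, n = 4) with hindbrain markers, -0.71 ± 0.01 (n = 3) with cortex markers, -1.22 ± 0.19 (n = 7) with olfactory markers and 0.00 in the cerebellum-marker library, a ratio chosen after its values were seen. By this length, RNA of the packaging transporter exceeded that of the synthesis enzymes in each hindbrain-marker library. With the longest transcript the margin there was smaller, at 0.34 ± 0.17 (SD, n = 4; 0.17 to 0.56). The cerebellum-marker value became -0.75, while cortex-marker and olfactory-marker means stayed below 0 (-1.38 and -1.98). The annotated lncRNA Gm14204 reached 65.2 CPM, and its span overlaps that of Slc32a1 by 3464 bases, introns included. The overlap of their exons was not measured, and the sources used here do not give whether counting used strand. Reads of the 2 genes therefore cannot be told apart where their exons overlap, and their part in the hindbrain-marker margin was not tested.

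**Figure D2:**
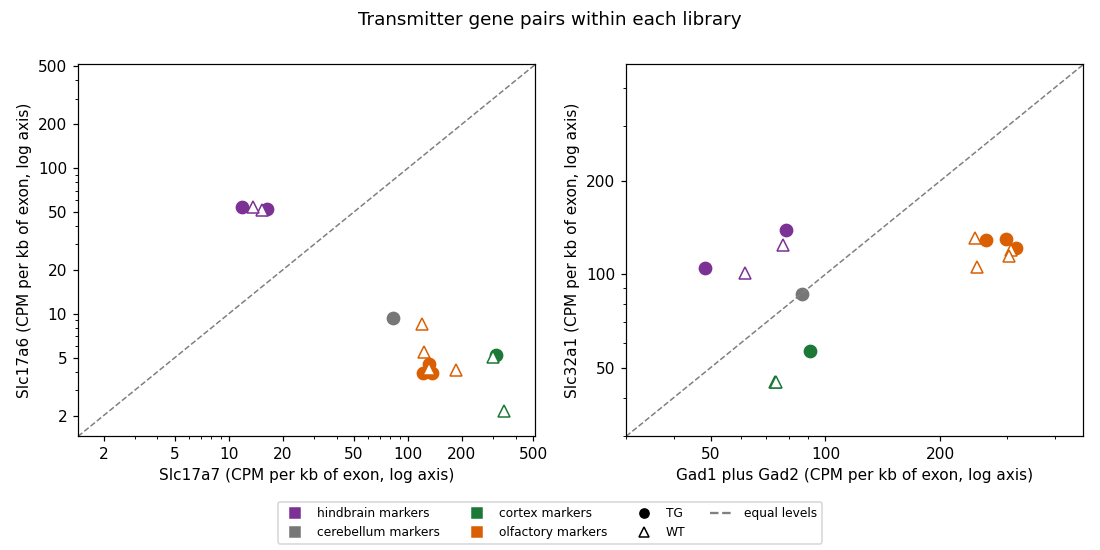
Slc17a6 against Slc17a7 (left) and Slc32a1 against the sum of Gad1 and Gad2 (right), in CPM per kb of exon on log axes, with a point for each of 15 libraries coloured by class and a dashed line of equal levels. In both panels the 4 hindbrain-marker libraries lie above the line, with mean log2 ratios of 1.89 and 0.83, and the cortex-marker and olfactory-marker libraries lie below it.

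Slc6a5, the marker of glycine-releasing neurons, was measured in the hindbrain-marker libraries and in the cerebellum-marker library. It read 61.9 CPM in TG female 1, 103 in TG female 4, 73.5 in WT female 3 and 81.6 in WT male 3 (mean 79.9 ± 17.1, SD, n = 4), and 9.49 CPM, from 159 counts, in the cerebellum-marker library. Each of the 10 cortex-marker and olfactory-marker libraries held between 0 and 2 counts, at most 0.119 CPM. With every library set to no less than the value of 3 counts, the hindbrain-marker mean was at least 488-fold higher than the olfactory-marker mean and at least 460-fold higher than the cortex-marker mean. The sum of the hindbrain markers followed the same order, from 438 to 575 CPM in the hindbrain-marker class through 20.8 CPM in the cerebellum-marker library to at most 0.507 CPM elsewhere. Within the hindbrain-marker libraries the log2 ratio of Slc6a5 to the sum of Gad1 and Gad2, per kilobase of exon, was -2.58 ± 0.14 (SD, n = 4), and to Slc32a1 -3.41 ± 0.15. In the cerebellum-marker library these ratios were -6.04 and -6.03. RNA of the glycine transporter was below that of the GABA enzymes in every library that held it.

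Slc6a9, the glycine transporter found mainly in glia, was present in all libraries and ordered them in the same way. It read 272 and 242 CPM in TG females 1 and 4, 289 in WT female 3 and 259 in WT male 3 (mean 265 ± 20.0, SD, n = 4), 139 CPM in the cerebellum-marker library, 77.8 to 130 with olfactory markers (median 103, mean 101 ± 16.2, n = 7) and 36.8 to 53.4 with cortex markers (46.2 ± 8.56, n = 3). The 3 replicated classes did not overlap. The hindbrain-marker mean was 2.62-fold above the olfactory-marker and 5.74-fold above the cortex-marker mean. Astrocyte markers had the same order: the 7 of them summed to between 2582 and 3943 CPM with hindbrain markers, 1025 to 1530 with olfactory markers and 731 to 768 with cortex markers. The corresponding sums of 7 oligodendrocyte markers were 17421 to 22499, 1835 to 3458 and 2542 to 5194 CPM, highest with hindbrain markers but overlapping between the other classes. Those of 6 microglial markers, 243 to 296, 236 to 275 and 240 to 287 CPM, overlapped throughout. The part of glial content in the Slc6a9 difference was not tested.

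Slc1a1 (EAAC1), which takes glutamate and cysteine into neurons, varied least between the replicated classes among the genes whose classes separated. It read 87.0 to 102 CPM with hindbrain markers (mean 93.7 ± 6.39, SD, n = 4), 140 to 146 with cortex markers (142 ± 3.55, n = 3) and 132 to 154 with olfactory markers (144 ± 7.58, n = 7), and the cerebellum-marker library was the lowest of all at 40.2 CPM. The hindbrain-marker mean was 1.53-fold below the olfactory-marker mean, without overlap, and the cortex-marker and olfactory-marker ranges overlapped.

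Counted over the 9 genes, the hindbrain-marker libraries lay wholly above the olfactory-marker libraries for 3 (Slc6a5, Slc17a6 and Slc6a9) and wholly below for 4 (Slc17a7, Gad1, Gad2 and Slc1a1), and overlapped them for 2 (Slc32a1 and Slc17a8). Over all tested genes 24.8% lay wholly above and 25.7% wholly below. Between cortex-marker and olfactory-marker libraries 1 gene was wholly higher (Slc17a7) and 4 wholly lower (Gad1, Gad2, Slc32a1 and Slc6a9), against 19.9% and 17.9% of all genes. Between hindbrain-marker and cortex-marker libraries 4 were wholly higher (Slc6a5, Slc17a6, Slc6a9 and Slc32a1) and 3 wholly lower (Slc17a7, Gad1 and Slc1a1), against 29.8% and 29.3%. The median log2 differences over the genes with a value were -0.05, -0.70 (8 genes) and 0.21, and over all tested genes 0.00, -0.01 and 0.01. Beside these differences, 10 pan-neuronal markers summed to 7812 to 8706 CPM with hindbrain markers, 8936 to 11368 with cortex markers and 6461 to 7257 with olfactory markers. When libraries were scaled to the pan-neuronal markers, the median log2 difference of all genes was -0.52 for hindbrain against olfactory, -0.67 for cortex against olfactory and 0.15 for hindbrain against cortex markers. The shares of all genes wholly higher and wholly lower were then 8.39% and 50.6%, 3.54% and 62.9%, and 37.2% and 19.3%. Under that scaling no separated gene changed its direction, and Slc17a6 (-0.93) and Slc1a1 (-0.68) were also wholly lower with cortex than with olfactory markers, close to the shift of all genes.

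**Figure D3:**
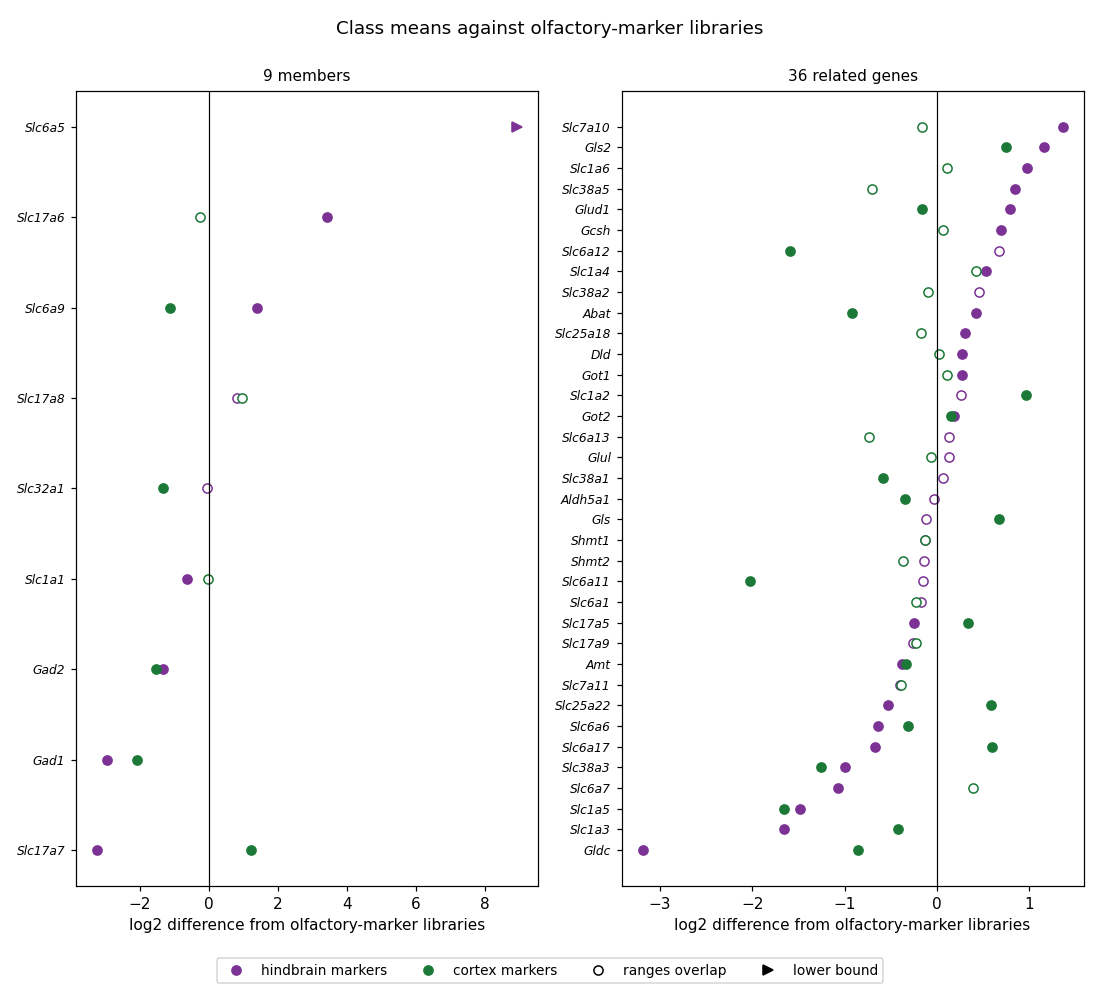
Log2 difference of the hindbrain-marker (purple) and cortex-marker (green) class means from the olfactory-marker mean, for the 9 genes (left) and 36 related transport and metabolism genes (right); open circles mark classes whose ranges overlap, and the triangle is the lower bound for Slc6a5. For the hindbrain-marker class Slc6a5 (at least 8.93) and Slc17a6 (3.41) lie farthest above 0, Slc17a7 (-3.24) lies farthest below, and Slc32a1 (-0.05) lies near 0.

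Transgenic and WT libraries were compared next, which is the comparison the study was built on. Across all 15 libraries with sex as a covariate, 0 of the 9 genes passed the threshold in edgeR's quasi-likelihood test (p adjusted by Benjamini-Hochberg over 17151 genes), where 0.111% of all genes (19) passed. None had an unadjusted p under 0.05, by edgeR or by DESeq2, and the smallest adjusted p was 0.9999. The intervals were wide, since each genotype held libraries of several classes. The log2 fold change of Slc17a7 was -0.55 ± 0.73 (SE; 95% interval -2.11 to 1.01) and that of Slc17a6 -0.35 ± 0.99 (-2.47 to 1.77). The median over the 9 genes was -0.23, against 0.00 over all genes.

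With the library class in the model the intervals narrowed, and again 0 of the 9 genes passed, where 0.496% of all genes (85) did. None had an unadjusted p under 0.05 by either tool. Slc32a1 had the smallest p, with a log2 fold change of 0.15 ± 0.07 (SE; 95% interval -0.01 to 0.31; edgeR adjusted p 0.631). Slc17a7 was at -0.08 (-0.30 to 0.15), Slc17a6 at -0.10 (-0.60 to 0.39), Gad1 at 0.16 (-0.12 to 0.44) and Gad2 at -0.06 (-0.36 to 0.25). Slc6a9 was at -0.07 (-0.28 to 0.13), Slc6a5 at 0.17 (-0.43 to 0.77), Slc1a1 at -0.03 (-0.14 to 0.07) and Slc17a8 at -0.35 (-1.22 to 0.52). For Slc17a7, Slc6a9, Slc32a1 and Slc1a1 the interval reached no farther than about 0.31 from 0 on the log2 scale, and for Slc17a8 it was widest. These intervals treat each library as independent. No label names a separate animal for each library, so the intervals may not cover variation between animals and set no bound on the genotype effect.

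Within the olfactory-marker libraries (3 TG and 4 WT) 0 of the 9 genes passed, where 0.245% of all genes did, and none had an unadjusted p under 0.05 by edgeR or DESeq2. TG and WT ranges overlapped for every gene, while they lay apart for 6.78% of all genes. Gad1 read 1227, 1466 and 1614 CPM in TG and 867, 1249, 1428 and 1500 in WT, a log2 fold change of 0.24 (95% interval -0.15 to 0.62; edgeR adjusted p 0.707). Slc17a6 read 21.3, 24.5 and 21.0 CPM in TG and 29.5, 22.7, 46.3 and 22.2 in WT, a log2 fold change of -0.43 (-1.15 to 0.29; edgeR adjusted p 0.707). In both genes the value of WT male 1 (867 and 46.3 CPM) stood farthest from the rest, and without it the fold changes were 0.065 for Gad1 and -0.061 for Slc17a6. The Gad1 value was 0.47 without TG female 2 and 0.12 without TG male 3. The other 6 genes with a value had log2 fold changes between -0.40 (Slc17a8) and 0.11 (Slc6a9), and Slc6a5 was at or under 3 counts in each library of both genotypes, so no fold is given. The median over the 8 genes was -0.04, against 0.01 over all genes.

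Within the hindbrain-marker libraries (2 TG and 2 WT) 0 of the 9 genes passed, where 0.07% of all genes did, and none had an unadjusted p under 0.05 by edgeR or DESeq2. Slc1a1 was the 1 gene whose genotypes did not overlap, at 91.8 and 87.0 CPM in TG and 102 and 93.8 in WT, in a comparison where 38.6% of all genes lay apart. Its log2 fold change was -0.16 (95% interval -0.35 to 0.03; edgeR adjusted p 0.916). Summed oligodendrocyte markers were 17421 to 19858 CPM in TG and 19935 to 22499 in WT and pan-neuronal markers 7812 to 8320 and 8439 to 8706, and their part in this difference was not tested. Slc17a6 (0.00, -0.92 to 0.92), Slc17a7 (0.00, -0.49 to 0.49), Slc6a5 (0.16, -0.49 to 0.81), Gad1 (-0.19, -0.71 to 0.33) and Slc32a1 (0.14, -0.19 to 0.47) had intervals on both sides of 0, as did Gad2 (-0.05, -0.73 to 0.63) and Slc6a9 (-0.20, -0.56 to 0.15). The fold change farthest from 0 was that of Slc17a8, at -0.76 (-2.59 to 1.07), a gene at 2.84 to 7.74 CPM in these libraries. The median over the 9 genes was -0.05, against 0.00 over all genes.

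**Figure D4:**
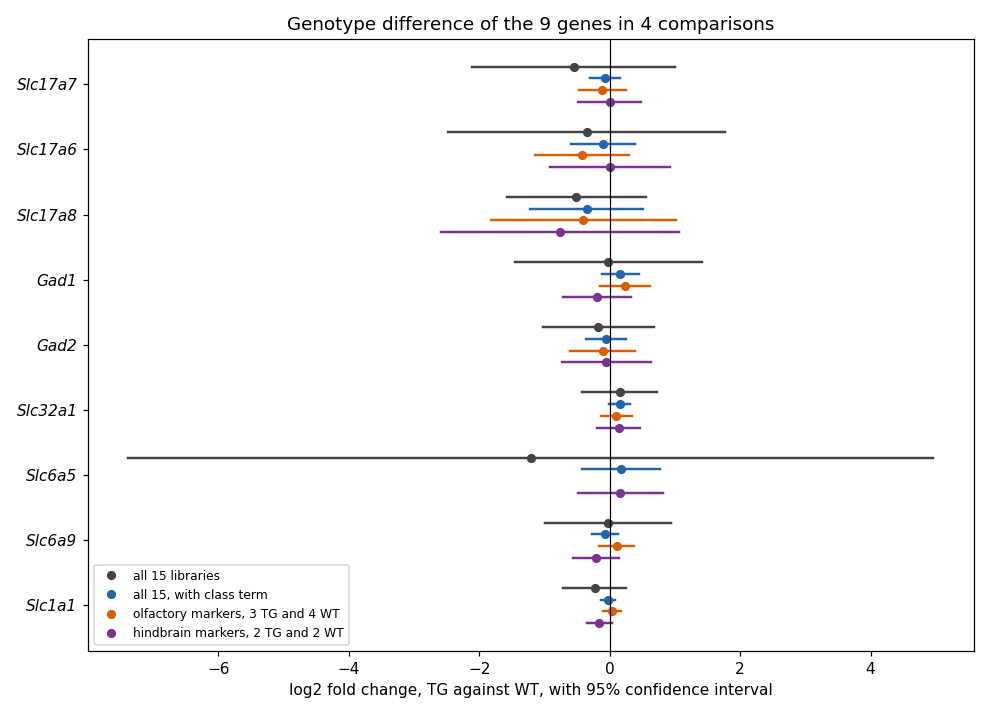
Log2 fold change of TG against WT with its 95% confidence interval for each gene, over all 15 libraries, with the class in the model, and within the olfactory-marker and hindbrain-marker libraries. Every interval crosses 0, and those with the class in the model are narrower, as for Slc17a7 (-0.30 to 0.15 against -2.11 to 1.01).

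The genotype difference itself was compared between the hindbrain-marker and olfactory-marker classes, and 0 of the 8 genes with a value in both passed this interaction test, where 0.0117% of all genes did. Again none had an unadjusted p under 0.05 by edgeR or DESeq2. Gad1 had a difference of -0.43 (95% interval -1.09 to 0.24; edgeR adjusted p 0.855) and Slc1a1 of -0.20 (-0.44 to 0.04; edgeR adjusted p 0.851). Between males and females with the class in the model 0 of the 9 genes passed, where 0.07% of all genes did. Slc6a9 was at -0.21 in males against females (-0.42 to 0.00; edgeR adjusted p 0.874), and it was the 1 gene with an unadjusted p under 0.05 by DESeq2, against 0 by edgeR.

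The balance between these genes was also compared between genotypes, as ratios within libraries. The log2 ratio of Slc17a6 to Slc17a7 averaged -2.87 in TG and -3.53 in WT, a difference of 0.66 (two-sided exact permutation test over 6435 arrangements, p = 0.673; adjusted over 4 ratios, 0.673). Without TG female 1 this difference was -0.19 and without TG female 4 it was -0.10, both hindbrain-marker libraries. The ratio of Slc6a5 to the Gad genes differed by 1.67 (exact p = 0.570), that of Slc6a5 to Slc32a1 by 1.40 (exact p = 0.579) and that of Gad2 to Gad1 by -0.18 (exact p = 0.649; 0.0015 without WT male 3), all with an adjusted p of 0.673. With each library left out, the 1.67 ran from 0.45, without TG female 1 or TG female 4, to 2.95, without WT female 3, and the 1.40 from 0.36, without TG female 4, to 2.48, without WT female 3. The Slc6a5 ratios rest on 0 to 2 counts, with 0.5 counts added, in 10 of the libraries. Within the olfactory-marker class the ratio of Slc17a6 to Slc17a7 averaged -4.98 in TG and -4.69 in WT (exact p = 0.629), and that of Gad2 to Gad1 -0.83 and -0.55 (exact p = 0.600), where the smallest p that 35 arrangements allow is 0.0286. Within the hindbrain-marker class the ratio of Slc17a6 to Slc17a7 averaged 1.93 in TG and 1.86 in WT, that of Slc6a5 to the Gad genes -2.48 and -2.68 and that of Slc6a5 to Slc32a1 -3.45 and -3.38. Of the ratios, only that of Slc6a5 to the Gad genes lay apart between genotypes there. It was -2.49 and -2.47 in TG females 1 and 4, -2.77 in WT male 3 and -2.59 in WT female 3 (exact permutation p = 0.333). With 6 arrangements no exact p can fall below 0.333 in this class, so the test cannot decide. Among single genes, 38.6% of all tested lay apart in this comparison. The ratio of Slc17a6 to Slc17a7 was above 0 in the 4 hindbrain-marker libraries and below 0 in the other 11, in both genotypes.

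A list of 38 related genes for uptake, supply and breakdown of glutamate, GABA and glycine gave a background for these members, with 36 tested and Slc6a14 and Slc1a7 below the filter. Of the 36, 12 lay wholly higher and 10 wholly lower with hindbrain than with olfactory markers, 7 and 12 with cortex than with olfactory markers, and 14 and 9 with hindbrain than with cortex markers. The shares over all tested genes were 24.8% and 25.7%, 19.9% and 17.9%, and 29.8% and 29.3% in the same order. The named genes below are those with the largest differences. Gldc, the decarboxylase of the glycine cleavage system, averaged 1.97 CPM with hindbrain and 17.9 with olfactory markers, 9.09-fold lower, in the class where Slc6a5 and Slc6a9 were highest. Slc1a3, the astrocyte glutamate transporter GLAST, averaged 236 ± 14.6 CPM (SD, n = 4) against 745 ± 68.3 (n = 7), although summed astrocyte markers were higher with hindbrain markers. Slc7a10, which carries glycine and serine, went the other way, at 72.6 ± 3.41 against 28.3 ± 2.32 CPM. Gls2, a glutaminase, was 2.23-fold higher, and the neutral amino acid transporter Slc1a5 and the brain proline transporter Slc6a7 were 2.80-fold and 2.09-fold lower.

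The GABA uptake transporter Slc6a11 (GAT-3), found mainly in astrocytes, was lowest with cortex markers among the replicated classes. It averaged 158 ± 27.2 CPM (SD, n = 3) there, 646 ± 78.7 (n = 7) with olfactory and 580 ± 35.2 (n = 4) with hindbrain markers, which is the order of Slc32a1. Abat, which breaks GABA down, averaged 309, 583 and 779 CPM in these classes. Slc6a12 was 3.00-fold, Slc1a5 3.15-fold and Slc38a3, a glutamine transporter, 2.38-fold lower with cortex than with olfactory markers, and Slc1a2, the main astrocyte glutamate transporter GLT-1, was 1.95-fold higher. Against cortex-marker libraries the hindbrain-marker libraries were higher for Slc6a12 (4.78-fold), Slc6a11 (3.66-fold), Slc38a5 (2.94-fold) and Slc7a10 (2.87-fold) and lower for Gldc (5.04-fold) and Slc6a7 (2.73-fold). In the genotype comparisons 0 of the 36 passed edgeR's test with or without the class in the model, within either class, in the interaction or between the sexes. At an unadjusted p under 0.05 there were 3 with the class in the model, against 8.40% of all genes, 4 within the olfactory-marker class, against 7.75%, 1 within the hindbrain-marker class, against 5.81%, and 1 between the sexes, against 5.52%. There were 0 over all 15 libraries and 0 in the interaction, against 1.83% and 5.46%.

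For 4 of the genes, those most alike across the 15 libraries were found by Pearson's r of log2 CPM, given as a description because the libraries share their region content. Slc17a6 was most like Hdhd2 (r = 0.982), the glycine receptor subunit gene Glra1 (0.981) and Slc4a9 (0.981). Glra1 averaged 48.5 CPM with hindbrain markers, 0.597 with olfactory and 0.305 with cortex markers. RNA of this subunit was thus highest in the class where Slc6a5 was highest. In the cerebellum-marker library, which also held Slc6a5, Glra1 read 1.73 CPM. Slc17a7 was most like Bcl7a (0.989), Iqsec2 (0.988) and Anks1b (0.987), the last at 91.2, 249 and 329 CPM with hindbrain, olfactory and cortex markers. Slc6a5 was most like Hoxb3 (0.996), Hoxd3 (0.995) and Hoxc4 (0.995), which are among the markers that formed the classes. Slc32a1 was most like Penk (0.963), also such a marker, the sodium-calcium exchanger gene Slc8a3 (0.963) and Dnase1 (0.938). Penk, the enkephalin precursor, averaged 274, 316 and 48.8 CPM with hindbrain, olfactory and cortex markers. Among the 9 genes, Slc17a6 and Slc17a7 had r = -0.956, Slc6a5 and Slc17a6 0.962, and Gad1 and Gad2 0.868, whereas Slc32a1 had 0.354 with Gad1 and 0.629 with Gad2.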

How the data were processed

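RNA was sequenced from 15 samples, each a library of its own per the labels, prepared from 250 ng of total RNA as stranded libraries with ribosomal RNA removed and read as pairs of 100 bp; the labels also give the molecule as polyA RNA. The deposited values are whole-number counts per gene, made by the authors with STAR 2.7.5b, featureCounts and build GRCm38, per the submitters' processing notes. The sources used here do not say whether counting used strand. Of 27179 gene IDs, 25275 were matched to RefSeq names, 18 through GENCODE, and 1886, with 0.836% of counts, to none. Libraries held 15170772 to 35850998 counts (median 17635366). No pair agreed within sampling noise (lowest chi-square per gene 6.06), and no label names a separate animal for each sample. In the sample titles, samples of a genotype and sex share a number and differ in its suffix. Whether such a number stands for a single animal is not stated. The tests treat each library as independent, so the spread behind each p-value may be technical or lie within animals.

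The tests on counts used edgeR 4.0.16 under R 4.3.3 (filterByExpr over the 4 genotype-by-sex groups, TMM, robust quasi-likelihood F test, Benjamini-Hochberg over 17151 genes at 0.05), with sex as a covariate. Genotype was fitted over all libraries, with a term for library class, and within classes and between them by contrasts in a model of class-by-genotype means; the cerebellum-marker and cortex-marker classes enter these fits for the shared spread. Classes came from Ward clustering of scaled log2 CPM of lists for cortex, striatum, cerebellum, hindbrain and hypothalamus, cut at 4. The lists gave summed levels of 1954 to 2613 CPM for cortex markers in the cortex-marker class and at most 772 elsewhere, 428 to 1908 for striatum, 50.2 to 125 for cerebellum outside the cerebellum-marker library, and 1.95 to 177 for hypothalamus. Microglial markers summed to 138 to 296 CPM and vascular markers to 120 to 178. CPM uses TMM-scaled library sizes, SD is over libraries, and ratios use CPM per kb of the union of exons with 0.5 counts added. Folds and log2 differences between classes set each library at no less than 3 counts. Class means, SDs, ranges and their overlap use the values without this limit.

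The members, lists, designs and classes were chosen with earlier results of these data known. The 9 genes are named throughout. Related genes are named up to 6 per comparison by size of difference where past its threshold (ranges that do not overlap, between classes), and the 3 genes most alike were taken among those with a mean of at least 1 CPM. Where Gm14204, neuron, glia and region markers are named, it is for their values beside a result. On simulated counts for 17151 genes, 84% of 2-fold changes were recovered for genotype with the class term and 44% without it. Recovery was 58% within the olfactory-marker class, 64% within the hindbrain-marker class, 20% for the interaction and 84% for sex. In the same order, 9, 0, 5, 8, 8 and 10 unchanged genes were also called. Simulated libraries were drawn independently of each other. Other settings were DESeq2 1.42.0, its size factors, no filter, no sex covariate, the replicate number as a block, the hindbrain-marker and olfactory-marker libraries alone, scaling to pan-neuronal markers, and each library left out.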

Additional observations from a re-analysis of the deposited data

Results flagged for a closer look

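A sample was marked where its gap to the nearest other sample of its group exceeded Dixon's limit. This happened for 7 of 44 gene and group pairs, where chance marks about 1 in 20. Among WT females, WT female 3 stood apart with 73.5 CPM of Slc6a5 (others 0 to 0.111), 277 CPM of Slc17a6 (others 22.7 to 29.5) and 102 CPM of Slc1a1 (others 146 to 152). Among WT males, WT male 3 stood apart with 81.6 CPM of Slc6a5 (others 0 to 0.119) and 291 CPM of Slc17a6 (others 11.7 to 46.3). These are the 2 WT libraries of the hindbrain-marker class. Within the olfactory-marker class, WT male 1 had 46.3 CPM of Slc17a6 (others 21.0 to 29.5), and WT male 2 had 998 CPM of Slc17a7 (others 643 to 734). WT male 2 is a library that joins the cortex-marker class when classes are formed on scaled list means.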

How the results depend on the processing

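No gene of the 9 passed the threshold for genotype or sex under any setting tried, with adjusted p of 0.9996 to 1 over all libraries, 0.502 to 0.999 with the class term, 0.241 to 1 within the olfactory-marker class, 0.718 to 1 within the hindbrain-marker class, 0.388 to 1 for the interaction and 0.433 to 1 for sex. Class differences that separated kept their direction under all scalings and with each library left out. Of all 26 class differences with a value, including those whose ranges overlap, 16 moved by more than the replicate SD when scaled to pan-neuronal markers.

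DESeq2 called 40 genes over all libraries (19 by edgeR), 175 with the class term (85), 115 (42) and 36 (12) within the olfactory-marker and hindbrain-marker classes and 38 (2) for the interaction. With hindbrain-marker and olfactory-marker libraries alone, the class-term count was 46. Of 21 same-number pairs, 7 correlated above 0.1 (-0.654 to 0.925), and 3 of 15 libraries were closest to their own number. These correlations carry the region content of the libraries, so they cannot decide whether replicate numbers pair the samples. The highest was between 2 hindbrain-marker libraries (WT male 3 and WT female 3). The lowest was between an olfactory-marker and a cortex-marker library (WT female 4 and TG male 4). With the replicate block the counts were 53 with the class term, 2 and 1 within the olfactory-marker and hindbrain-marker classes and 0 for the interaction. With each library left out, counts ran from 56 to 86, 18 to 69, 4 to 15 and 0 to 25 in these 4 comparisons, the lowest without TG male 4 (class term), TG female 2 or TG male 3 (olfactory), WT male 3 or TG female 4 (hindbrain), and WT male 3, WT female 3 or TG female 4 (interaction). The highest of the olfactory and interaction counts came without WT male 4. Where 1 library of a genotype was left, it was assumed to vary like the other groups.

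Signs of fold changes that did not pass turned as follows, and the cause was not tested. With the replicate block, over all libraries Slc6a5 was at 3.20, Slc6a9 at 0.070, Gad1 at 0.11 and Slc17a6 at 0.20; with the class term Slc6a5 at -0.11; within the olfactory-marker class Gad2 at 0.030 and Slc1a1 at -0.010; within the hindbrain-marker class Slc6a5 at -0.22, Slc32a1 at -0.042 and Gad1 at 0.076; and for the interaction Slc32a1 at -0.21, Gad2 at -0.42 and Slc17a7 at -0.11. Without the sex covariate, over all libraries Slc6a5 was at 0.35, Slc6a9 at 0.12, Gad1 at 0.053 and Slc17a6 at 0.17, and for the interaction Gad2 at -0.057. Within the hindbrain-marker class Slc17a7 was at 0.0105 with DESeq2 and 0.0108 with its size factors, and Slc17a6 at -7e-04 without the filter.

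With each library left out, over all libraries Gad1 ran from -0.39 to 0.23, Slc17a6 from -0.69 to 0.44, Slc6a5 from -2.40 to 1.20 and Slc6a9 from -0.21 to 0.31. With the class term, Gad2 ran from -0.18 to 0.037, Slc17a6 from -0.26 to 0.059, Slc17a7 from -0.14 to 0.008 and Slc6a5 from -0.20 to 0.47. Within the olfactory-marker class, Slc17a7 ran from -0.21 to 0.075, Slc17a8 from -1.59 to 0.16 and Slc1a1 from -0.018 to 0.11. Within the hindbrain-marker class, Gad2 ran from -0.59 to 0.35, Slc17a6 from -0.12 to 0.12, Slc17a7 from -0.26 to 0.23, Slc32a1 from -0.078 to 0.34 and Slc6a5 from -0.25 to 0.49. For the interaction, Gad2 ran from -0.48 to 0.46, Slc17a6 from -0.058 to 0.62, Slc17a7 from -0.14 to 0.34, Slc17a8 from -1.13 to 1.19 and Slc32a1 from -0.18 to 0.24. For sex, Gad1 ran from -0.13 to 0.033, Slc17a6 from -0.15 to 0.15, Slc17a7 from -0.030 to 0.13 and Slc17a8 from -0.13 to 0.52. The genotype difference in the log2 ratio of Gad2 to Gad1 ran from -0.42 to 0.0015 and that of Slc17a6 to Slc17a7 from -0.19 to 1.44.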
